A study of Mus musculus with 14 samples.

Results

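Transcripts of 10 genes of transforming growth factor beta (TGF beta) signaling were followed in the Ocy454 osteocyte-like cell line. They are the 3 ligands Tgfb1, Tgfb2 and Tgfb3, the latency protein Ltbp1, the receptors Tgfbr1, Tgfbr2 and Tgfbr3, and the SMAD proteins Smad2, Smad3 and Smad7. The genes were chosen by name, as a pathway, and all 10 were found among the 39179 genes of the differentiation table and among the 35886 genes to which the transcripts of the sorted libraries were summed. All 10 also passed the filters on low values, so that none is missing from the tests below.

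Ocy454 is a mouse line whose growth is set by temperature. A heat-labile large T antigen drives proliferation in cooler culture, and maturation begins once the cells are moved to 37 °C. All groups carry the antigen and come from this 1 line. RNA was sequenced from unsorted cells after 1, 7, 10 and 14 days at 37 °C, with 2 biologic replicates per day and no other treatment. In a second experiment, cells differentiated for 17 days were labeled with an antibody to CD61 (integrin beta-3, encoded by Itgb3). The live cells in the top 10% (CD61 high) and bottom 10% (CD61 low) of fluorescence were collected, with 3 libraries of polyadenylated RNA each. By the study's methods both fractions were sorted from the same 3 independently collected groups of cells, but no source used here says that an equal replicate number marks an equal group, and the fits below are unpaired. The labels give this culture age, whereas a passage of the study's text puts it a day earlier. The first experiment asks how transcripts move as the cells mature, and the second asks what separates the most from the least CD61-labeled cells of 1 culture age.

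TGF beta ligands are secreted in a latent form, in which the cytokine is held by its own propeptide, and LTBP proteins tether this complex to fibrillin-rich extracellular matrix. Once released, often by integrins or thrombospondin, the ligand binds the type II receptor TGFBR2, which recruits and phosphorylates the type I receptor TGFBR1, while TGFBR3 (betaglycan) is a co-receptor that presents ligand, TGF beta 2 above all. TGFBR1 phosphorylates SMAD2 and SMAD3, which enter the nucleus with SMAD4 and act on genes that carry SMAD binding elements, whereas the inhibitory SMAD7 is induced by the pathway and shuts the receptor off. Bone matrix is a large store of latent TGF beta, and osteocytes are among the cells that respond to it.

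The differentiation libraries held 27518605 to 34311238 reads and the sorted libraries 18815602 to 19220064 estimated counts. As a check of the sort, Itgb3 read 5.31, 5.54 and 6.10 CPM (counts scaled to the library total, here after adjustment by the trimmed mean of M values, TMM) in CD61 low cells and 130.1, 100.1 and 104 in CD61 high cells. The summed level of 6 osteocyte markers rose from 30.1 CPM in each day 1 library to 186 CPM in each day 14 library, although Fgf23 had no reads on any day and Mepe and Sost had none on day 1. In the sort this sum was 40.3 to 43.8 CPM in CD61 low and 93.9 to 128 CPM in CD61 high cells, and the sum of 6 osteoblast lineage markers was 17650 to 21581 and 50179 to 52888 CPM. Of the lists for other cell types, 8 macrophage markers summed to 18.3 to 23.5 CPM in CD61 low and 13.2 to 13.9 CPM in CD61 high cells, with Adgre1 at 0 in both, while 5 osteoclast markers and 4 endothelial markers stayed at or below 0.403 CPM in every sorted library. A sum of 4 chondrocyte markers was 5.25 to 7.13 CPM in CD61 low and 7.95 to 12.1 CPM in CD61 high cells, whereas 4 megakaryocyte markers overlapped (5.88 to 7.18 and 5.87 to 6.75 CPM) and 4 adipocyte markers stayed at or below 0.755 CPM in every library of both experiments. Over time, the chondrocyte sum was 61.6 to 62.1 CPM on day 1, 53.1 to 53.3 on day 7, 29.2 to 31.4 on day 10 and 76.6 to 97.2 on day 14. The macrophage sum was 14.3 to 14.9, 6.87 to 7.64, 13.3 to 14.8 and 8.48 to 9.08 CPM on these days, and the osteoblast sum lay between 26588 and 36570 CPM. The megakaryocyte sum was 9.24 to 9.97 CPM on day 1, 5.46 to 5.67 on day 7, 7.38 to 7.42 on day 10 and 6.56 to 7.30 on day 14. The osteocyte, osteoblast, macrophage and chondrocyte sums in both experiments, and the megakaryocyte sum over time, thus differed between groups along with the genes described here, and their part in those results was not tested.

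The sequences just before the start sites are shown for Tgfb1, Tgfb2 and Ltbp1, the 3 genes whose Log2FC in the sort was above 1, and for Ltbp1 because its starts are read separately below. The RefSeq promoter windows used here (GRCm38.p6) cover 6 of the 10 genes. Each window of 250 bases before a start was located in GRCm39 by an exact match. The bases printed stop at the first annotated exon. For the internal start of Ltbp1 they stop where the RefSeq start lies, 29 bases before the exon. Capitals mark the SMAD box CAGAC on either strand. Ltbp1 has 2 groups of start sites. The upstream start, at chr17:75312274-75312518 on the plus strand, opens the long transcript Ltbp1-201.
Ltbp1 upstream start: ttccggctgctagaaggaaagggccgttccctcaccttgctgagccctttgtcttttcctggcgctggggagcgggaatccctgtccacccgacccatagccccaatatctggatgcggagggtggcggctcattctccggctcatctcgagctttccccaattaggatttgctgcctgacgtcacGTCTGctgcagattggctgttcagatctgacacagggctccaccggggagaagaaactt
The internal start, at chr17:75485526-75485775 on the plus strand, lies before the shorter transcripts Ltbp1-202 and Ltbp1-203.
Ltbp1 internal start: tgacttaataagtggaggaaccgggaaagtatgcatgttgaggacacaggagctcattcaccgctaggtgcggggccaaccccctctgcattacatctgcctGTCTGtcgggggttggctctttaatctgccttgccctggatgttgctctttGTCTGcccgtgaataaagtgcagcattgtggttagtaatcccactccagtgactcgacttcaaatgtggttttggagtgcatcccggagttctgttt
The Tgfb2 window, at chr1:186438295-186438436 on the minus strand, and the Tgfb1 window, at chr7:25386177-25386389 on the plus strand, follow.
Tgfb2: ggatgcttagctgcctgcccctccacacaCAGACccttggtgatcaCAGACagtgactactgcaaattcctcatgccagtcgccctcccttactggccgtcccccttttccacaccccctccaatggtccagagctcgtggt
Tgfb1: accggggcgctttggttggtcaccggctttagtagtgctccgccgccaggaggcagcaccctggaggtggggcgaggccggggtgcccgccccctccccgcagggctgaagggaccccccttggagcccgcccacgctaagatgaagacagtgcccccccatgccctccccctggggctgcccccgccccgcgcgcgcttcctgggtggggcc
In the full windows of 250 bases, the SMAD box occurred 1 time before the upstream and 2 times before the internal start of Ltbp1, 2 times before Tgfb2 and 0 times before Tgfb1, and 42.2% of the 32851 RefSeq mouse promoters of this length hold it at least 1 time. Tgfb1 instead carried the GC box GGGCGG 5 times (either strand; 32.7% of promoters hold it) and its window was 75.2% G and C, against 56.8% and 50.8% before the starts of Ltbp1 and 53.6% before Tgfb2. The window of Tgfb2 held the TATA box TATAAA 1 time (12.4% of promoters), but not within the printed bases, which stop at the annotated exon. The GC boxes of Tgfb1 are likewise not all within the printed bases, since its full window also runs past the annotated start. No window of these 3 genes held the SMAD palindrome GTCTAGAC (0.167%) or the AP-1 site TGANTCA (6.75%). These matches are descriptions of short letter strings, not of bound sites.

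All 10 genes differed between day 14 and day 1, 5 upward and 5 downward. Genes were said to rise or fall at an adjusted p below 0.01 (limma on log2(CPM + 1), Benjamini-Hochberg over 12725 genes), and by this rule 32.6% of all genes rose and 36.0% fell. With so many genes moving, the number of members that moved says little by itself, and the sizes and directions are given gene by gene. The changes with a Log2FC beyond 1 were 1 rise (Tgfbr1) and 3 falls (Tgfb3, Ltbp1 and Tgfbr2), where 7.51% of all genes rose and 5.90% fell by as much. The median Log2FC of the 10 genes was -0.04, beside -0.03 over all genes.

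Of the 5 genes that were lower on day 14, 4 had fallen by day 7. The other one, Smad2, did not pass at that step (-0.13, limma adjusted p = 0.014) but did in a fit to the 4 libraries of days 1 and 7 alone (limma adjusted p = 0.00573) and without the first (0.00605) or second (0.00616) day 14 library. Tgfb2, the fifth gene called lower on day 7, later rose. Smad7 was called lower on day 7 with a pseudocount of 0.1 alone of the alternatives run (adjusted p = 0.00988). Between day 1 and day 7, 5 of the 10 genes fell and 2 rose (32.0% and 24.5% of all genes), and 4 of the falls and 0 of the rises were beyond 1 (4.62% and 4.49%). From day 7 to day 10, 5 rose and 1 fell, against 29.8% and 18.9% of all genes. From day 10 to day 14, 4 rose and 4 fell, against 22.9% and 30.0%. These steps share libraries with each other and with the comparison of day 14 with day 1. In the middle step, rises made up 61.3% of all calls but 48.2% with edgeR and TMM scaling of the recovered reads and 49.4% with quantile normalization, and in the last step 43.3%, 53.2% and 46.7%.

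**Figure D1:**
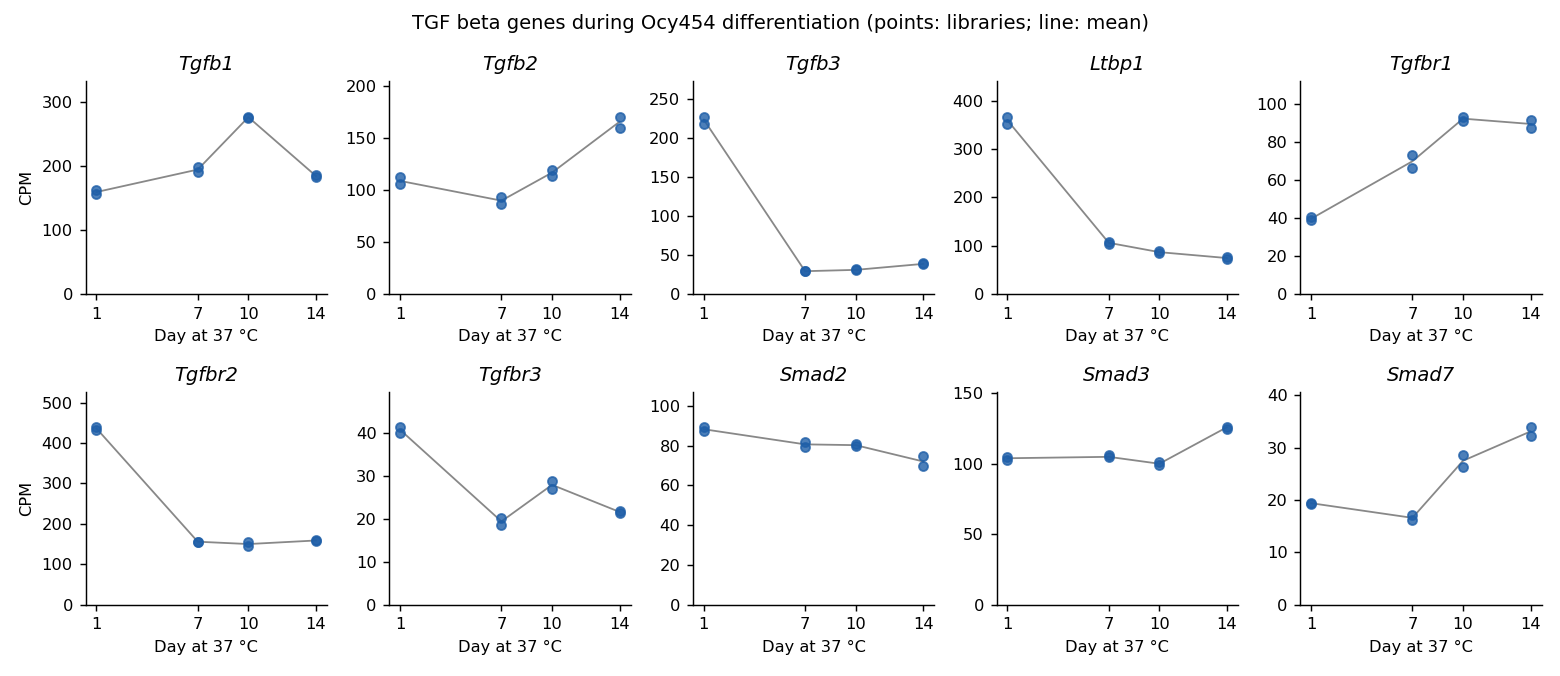
Each panel plots the CPM (linear axis from 0) of 1 gene against days at 37 °C, with a point for each of the 2 libraries per day and a line through the means. Tgfb3, Ltbp1 and Tgfbr2 drop between days 1 and 7, Tgfbr1, Tgfb2 and Smad7 end above their day 1 level, and Tgfb1 peaks on day 10.

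Among the ligands, Tgfb3 (chr12:86102756-86126301, minus strand, GRCm39) fell by the most. It read 219 and 228 CPM on day 1, 29.3 and 29.6 on day 7, 30.5 and 31.7 on day 10, and 38.1 and 39.5 on day 14. The day 1 libraries stood far above the rest, and the day 14 libraries lay above those of days 7 and 10. The Log2FC was -2.89 ± 0.05 (SE; limma adjusted p = 9.6e-26) from day 1 to day 7 and -2.50 ± 0.05 (adjusted p = 1.5e-24) from day 1 to day 14, with a rise of 0.31 ± 0.05 (adjusted p = 6.8e-06) in the last step. Tgfb3 overlaps the protein-coding gene Ttll5 on the opposite strand, and the sources used here do not say whether reads were counted by strand.

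Tgfb1 (chr7:25386390-25404506, plus strand), the ligand best known from bone matrix, rose and then came back. Its libraries read 157 and 163 CPM on day 1, 191 and 199 on day 7, 275 and 278 on day 10, and 184 and 186 on day 14. Day 10 stood above all other days. The Log2FC was 0.50 ± 0.04 from day 7 to day 10 (limma adjusted p = 1.6e-11) and -0.58 ± 0.04 from day 10 to day 14 (adjusted p = 8.0e-13), which left 0.21 ± 0.04 (adjusted p = 1.6e-05) between days 1 and 14.

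Tgfb2 (chr1:186354985-186438294, minus strand) dipped before it rose. It read 106 and 113 CPM on day 1, 93.6 and 86.5 on day 7, 119.5 and 114 on day 10, and 171 and 160.3 on day 14. The day 14 libraries were the highest and the day 7 libraries the lowest. Its Log2FC was -0.28 ± 0.05 (limma adjusted p = 8.8e-06) to day 7, then 0.37 ± 0.05 (adjusted p = 1.7e-07) and 0.50 ± 0.05 (adjusted p = 8.4e-10) in the next steps, and 0.59 ± 0.05 (adjusted p = 1.1e-11) over the whole period.

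These movements changed the make-up of the ligand mRNA. Levels of different genes were compared per length, as CPM per kilobase of gene model. These lengths need not match the transcripts in use, which bears on every ratio and order between genes. That of Ltbp1 is 10512 bases, although its longest transcript in the sort has 6671. That of Smad2 is 3814 bases, although Smad2-205, its most counted transcript in the sort, has 8089. On day 1, Tgfb3 made up 43.6% ± 0.00437 (SD, n = 2) of the summed ligand mRNA, Tgfb1 41.2% ± 0.190 and Tgfb2 15.2% ± 0.194. On day 7 the Tgfb3 share was 8.37% ± 0.0528 and the Tgfb1 share 73.3% ± 1.31, and on day 10 they were 6.46% ± 0.170 and 76.1% ± 0.409. On day 14, Tgfb1 held 60.9% ± 0.837, Tgfb2 29.5% ± 1.16 and Tgfb3 9.64% ± 0.328, and the order of the ligands, led by Tgfb3 on day 1, was Tgfb1, Tgfb2 and Tgfb3. Tgfb2 had been second since day 7, when its share was 18.3% ± 1.26. The summed ligand level was 152 ± 4.32 CPM per kilobase on day 1, 104 ± 1.32 on day 7, 142 ± 0.187 on day 10 and 119 ± 0.930 on day 14. These sums and shares are descriptions and were not tested.

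**Figure D2:**
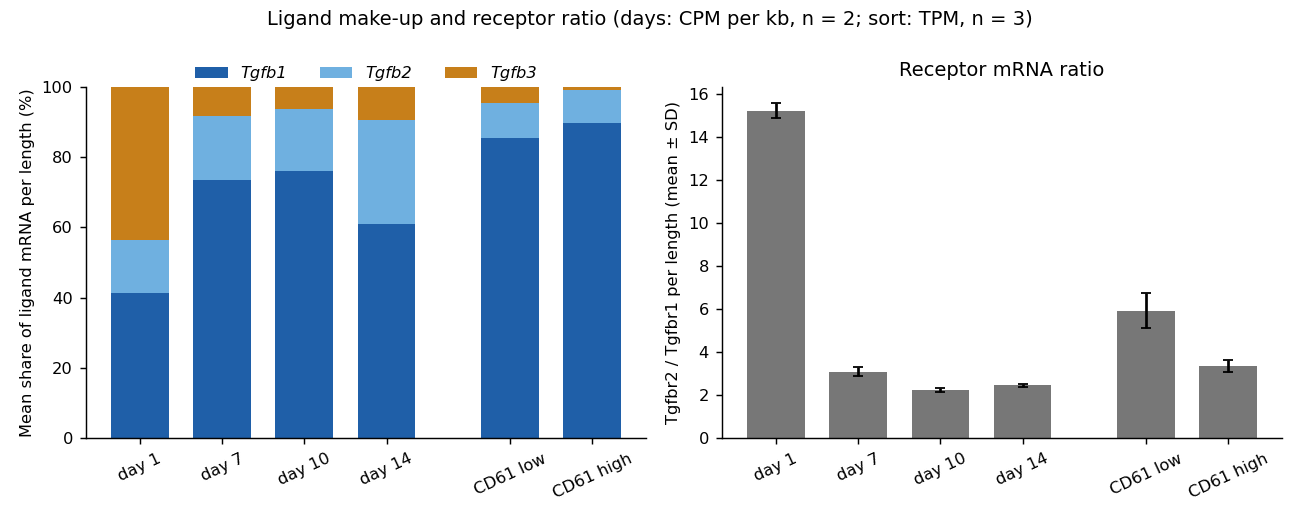
The left panel stacks the mean share (%) of Tgfb1, Tgfb2 and Tgfb3 in their summed mRNA per length, and the right panel gives the mean ratio of Tgfbr2 to Tgfbr1 mRNA per length with SD, from CPM per kilobase for days (n = 2) and TPM for sorted cells (n = 3). The Tgfb3 share drops from 43.6% on day 1 to 8.37% on day 7 and is 1.04% in CD61 high cells, and the receptor ratio drops from 15.2 to 3.10 over the same days.

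Ltbp1 (chr17:75312519-75699507, plus strand), which stores latent ligand in the matrix, fell at every step. It read 352 and 367 CPM on day 1, 108 and 103 on day 7, 84.3 and 89.0 on day 10, and 76.0 and 73.1 on day 14. No library of one day overlapped those of another. The Log2FC of day 14 against day 1 was -2.25 ± 0.04 (limma adjusted p = 3.7e-25), of which -1.76 ± 0.04 (adjusted p = 1.4e-22) had come by day 7, with -0.28 ± 0.04 (adjusted p = 3.1e-06) and -0.21 ± 0.04 (adjusted p = 9.4e-05) in the later steps. The call of the last step was lost without a trend in the limma fit (adjusted p = 0.0102).

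The receptors moved in opposite directions. Tgfbr2 (chr9:115913361-116004800, minus strand), the ligand-binding type II receptor, read 439 and 432 CPM on day 1, 156 and 156 on day 7, 156 and 145 on day 10, and 159 and 158 on day 14. The 6 libraries after day 1 lay close together and far below day 1. Its Log2FC was -1.47 ± 0.04 (limma adjusted p = 9.2e-22) from day 1 to day 7 and -1.45 ± 0.04 (adjusted p = 8.7e-22) from day 1 to day 14, and neither later step passed the threshold (-0.06 and 0.08). With edgeR and TMM scaling of the recovered reads both did, at -0.13 (adjusted p = 0.00769) from day 7 to day 10 and 0.14 (adjusted p = 0.00361) from day 10 to day 14.

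Tgfbr1 (chr4:47353134-47414931, plus strand), the kinase that phosphorylates the SMADs, rose from 40.6 and 38.7 CPM on day 1 to 73.2 and 66.3 on day 7 and 93.3 and 91.2 on day 10, and read 91.3 and 87.5 on day 14. The days were apart except that days 10 and 14 overlapped. The Log2FC was 0.80 ± 0.05 (limma adjusted p = 2.1e-13), then 0.40 ± 0.05 (adjusted p = 2.0e-07), then -0.05 ± 0.05 (adjusted p = 0.45), and 1.15 ± 0.05 (adjusted p = 4.8e-17) from day 1 to day 14. Per length, Tgfbr2 mRNA was 15.2 ± 0.350 times that of Tgfbr1 on day 1 (SD, n = 2), 3.10 ± 0.210 on day 7, 2.25 ± 0.0817 on day 10 and 2.46 ± 0.0709 on day 14. The size of this ratio depends on the gene model lengths, but its relative change over the days does not.

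Tgfbr3 (chr5:107249402-107437623, minus strand), the betaglycan co-receptor, read 41.3 and 40.0 CPM on day 1, 20.2 and 18.6 on day 7, 28.9 and 26.9 on day 10, and 21.3 and 21.9 on day 14. It was highest on day 1 and had a second, lower maximum on day 10. The Log2FC was -1.03 ± 0.07 (limma adjusted p = 3.9e-13) to day 7, 0.51 ± 0.07 (adjusted p = 4.8e-07) to day 10 and -0.35 ± 0.07 (adjusted p = 6.2e-05) to day 14, and -0.88 ± 0.07 (adjusted p = 6.7e-12) between days 1 and 14. GENCODE also lists 3 gene models of unsettled status on the same strand within Tgfbr3, so that its count could depend on how shared reads were treated. The same holds for Ltbp1, within which a processed pseudogene lies on the same strand, and Tgfb2, Tgfbr1, Tgfbr2, Tgfbr3 and Ltbp1 overlap non-coding gene models on the opposite strand.

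Of the SMAD genes, Smad7 changed by the most between days 1 and 14, and none of the 3 had a Log2FC beyond 1. Smad7 (chr18:75500374-75529006, plus strand), the inhibitor, read 19.5 and 19.2 CPM on day 1, 16.2 and 17.1 on day 7, 28.6 and 26.4 on day 10, and 33.9 and 32.2 on day 14. Its 4 late libraries lay above its 4 early ones. The Log2FC was 0.69 ± 0.07 (limma adjusted p = 4.9e-09) from day 7 to day 10 and 0.74 ± 0.07 (adjusted p = 4.1e-10) from day 1 to day 14. The last step, 0.26 ± 0.07 (adjusted p = 0.0024), lost its call without the second day 10 library (adjusted p = 0.0501) or the first day 14 library (adjusted p = 0.0290), and with no filter on low values (adjusted p = 0.0107).

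Smad3 (chr9:63554049-63665476, minus strand) read 105 and 103 CPM on day 1, 106 and 105 on day 7, 99.0 and 101 on day 10, and 126 and 125 on day 14. The day 14 libraries stood above all others, and the Log2FC was 0.33 ± 0.04 (limma adjusted p = 1.0e-07) in the last step and 0.27 ± 0.04 (adjusted p = 9.4e-07) overall. Smad2 (chr18:76374327-76445180, plus strand) read 89.2 and 87.3 CPM on day 1, 79.5 and 81.7 on day 7, 80.6 and 79.8 on day 10, and 69.5 and 74.6 on day 14. Its Log2FC between days 1 and 14 was -0.29 ± 0.05 (limma adjusted p = 2.6e-06). The fall of the last step, -0.15 ± 0.05 (adjusted p = 0.0046), lost its call without either day 10 library or the first day 14 library (adjusted p between 0.0187 and 0.0664). It was also lost with no filter on low values (adjusted p = 0.0174), with quantile normalization (0.0428), without a trend (0.0302), with a fit to the 4 libraries of these days alone (0.0113) and with edgeR and TMM on the recovered reads (0.0626). Per length, Smad3 mRNA was 0.813 ± 0.00119 times that of Smad2 on day 1 (SD, n = 2) and 1.21 ± 0.0687 times on day 14. The ratio thus rose, but whether the order of these 2 genes turned depends on the gene model lengths. In CPM, Smad3 stood above Smad2 on every day, with means of 104 and 88.2 on day 1.

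The order of all 10 genes per length changed mainly between days 1 and 7. Places within it depend on the gene model lengths used as divisors. On day 1 it ran from Tgfbr2 (91.2 CPM per kilobase), Tgfb3 (66.3) and Tgfb1 (62.7) down to Tgfbr1 (6.0), Tgfbr3 (5.81) and Smad7 (4.08). Tgfb2 (23.2) and Smad2 (23.1) did not differ beyond their replicates at this day, nor did Tgfbr1 and Tgfbr3. On day 7, Tgfb1 led with 76.4, followed by Tgfbr2 at 32.7, and Tgfbr3 was the lowest at 2.77. On day 14 the order was Tgfb1 (72.5), Tgfb2 (35.1), Tgfbr2 (33.2), Smad3 (22.8), Smad2 (18.9), Tgfbr1 (13.5), Tgfb3 (11.5), Ltbp1 (7.09), Smad7 (6.97) and Tgfbr3 (3.09), where Ltbp1 and Smad7 overlapped.

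The genes with the profile most like that of Tgfb3, which had the largest change, were Ehd2, Cyp1b1 and Anapc2. Their Pearson r with Tgfb3 on log2(CPM + 1) was 0.9996, 0.9987 and 0.9975 over the 8 libraries, the highest among the 10313 genes that averaged 5 CPM or more. Cyp1b1 read 277 CPM on average on day 1 and 23.3 on day 7, and Ehd2 250.2 and 91.9, whereas Anapc2 went only from 185 to 139.8. The libraries of a day share their culture age, so that r mostly reflects the contrast of day 1 with later days. Within the 10 genes, Tgfb3 was closest to Tgfbr2 (r = 0.99) and Ltbp1 (r = 0.95).

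The sort compared cells of a single culture age. CD61 high cells had more Tgfb1, Tgfb2 and Ltbp1 mRNA than CD61 low cells and less Tgfb3, Tgfbr2 and Smad2, and Tgfbr1, Tgfbr3, Smad3 and Smad7 did not pass the threshold. The test was edgeR's quasi-likelihood test on 12077 genes with Benjamini-Hochberg adjustment, by which CD61 high cells had 19.4% of genes higher and 16.0% lower. All 3 higher members had a Log2FC above 1, as did 4.84% of all genes, and 0 of the lower members were below -1, as were 4.37% of all genes. The median Log2FC of the 10 genes was 0.27, beside 0.00 over all genes. In bulk RNA, a larger share of cells with a transcript and more of it per cell cannot be told apart.

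The scaling of the sort bears on the larger and the smaller of these values alike. TMM factors were 1.1 to 1.13 in CD61 low and 0.895 to 0.909 in CD61 high libraries. Scaling by library size alone moved the median of all genes to -0.30 and left 18.8% of calls higher, against 54.8% with TMM. Under that scaling Tgfb1 read 0.99, Tgfb2 0.87 and Ltbp1 0.76, and Tgfb3 -1.28, Tgfbr2 -0.76 and Smad2 -0.71, each still past the threshold, so that the 6 called genes kept their direction. The values below are with TMM and thus relative to the bulk of genes.

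**Figure D3:**
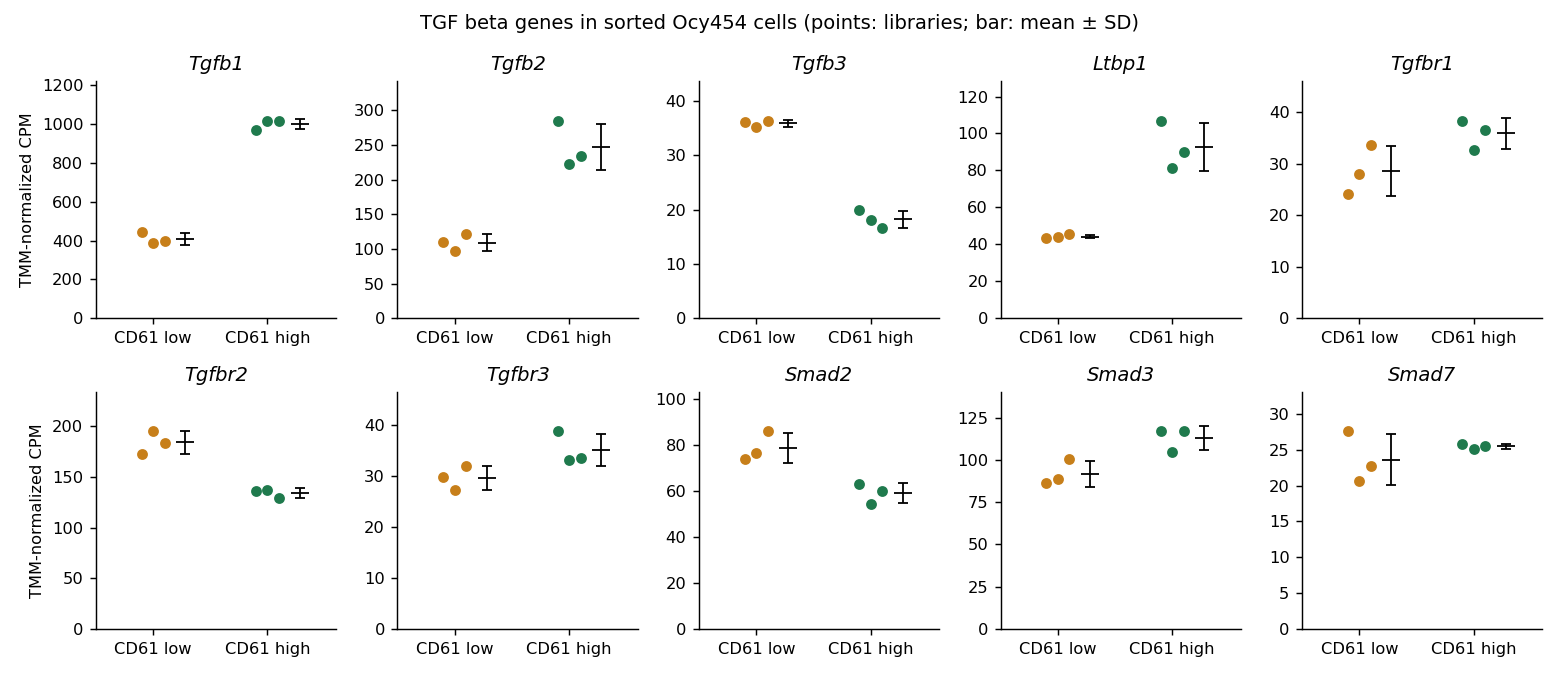
Each panel plots TMM-scaled CPM (linear axis from 0) of 1 gene in the 3 CD61 low and 3 CD61 high libraries, with the mean and SD beside the points. With this scaling the groups do not overlap for Tgfb1, Tgfb2, Ltbp1, Tgfb3, Tgfbr2, Tgfbr3, Smad2 and Smad3, and they overlap for Tgfbr1 and Smad7. The unscaled estimated counts of Tgfbr3 and Smad3 do overlap. The share of all genes without overlap was not computed, so the number of such members is not a result by itself.

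Tgfb1 read 444, 385 and 399 CPM in CD61 low and 969, 1018 and 1015 CPM in CD61 high cells. The groups were far apart, and the Log2FC was 1.29 ± 0.07 (SE; edgeR adjusted p = 6.8e-07). Tgfb2 read 110.1, 96.5 and 122 CPM in CD61 low and 285, 223 and 234 CPM in CD61 high cells, without overlap, at a Log2FC of 1.17 ± 0.11 (edgeR adjusted p = 1.6e-05). Tgfb3 went the other way from the ligands Tgfb1 and Tgfb2. It read 36.2, 35.2 and 36.4 CPM in CD61 low and 19.9, 18.0 and 16.7 CPM in CD61 high cells, at a Log2FC of -0.98 ± 0.09 (edgeR adjusted p = 1.4e-05).

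On the TPM scale, which is per length, Tgfb1 led all 10 genes in both groups, at 350.4 in CD61 low and 702 in CD61 high cells on average. It made up 85.5% ± 1.27 (SD, n = 3) of the ligand mRNA in CD61 low and 89.7% ± 1.69 in CD61 high cells, where the lowest CD61 high library stood above the highest CD61 low one (87.8% and 86.4%). The share of Tgfb2 was 9.73% ± 1.16 and 9.26% ± 1.59, and that of Tgfb3 4.82% ± 0.30 and 1.04% ± 0.111. The Tgfb2 shares overlapped and the Tgfb3 shares did not. TPM values are not TMM-scaled, and these shares were not tested.

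Ltbp1 was higher in CD61 high cells, with 43.5, 43.8 and 45.4 CPM in CD61 low and 107, 81.4 and 89.8 CPM in CD61 high libraries. The groups did not overlap, and the Log2FC was 1.07 ± 0.10 (edgeR adjusted p = 1.3e-05). Its sign was thus opposite to that of day 14 against day 1 (-2.25 ± 0.04), the only one of the 6 genes called in the sort for which this was so. The 2 contrasts come from different libraries and kinds of comparison, and their difference was not tested.

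The transcripts show which of the start sites printed above were in use. The long transcript from the upstream start, Ltbp1-201, took 22.5% ± 2.80 (SD, n = 3) of the estimated counts of Ltbp1 in CD61 low and 26.6% ± 2.55 in CD61 high cells, and the internal start took 76.8% ± 2.42 and 71.3% ± 3.13. Estimated counts from the upstream start were 212, 181 and 230.1 in CD61 low and 481, 341 and 446 in CD61 high libraries. Those from the internal start were 694, 742 and 694, and 1312, 1045 and 1036. Both start sites thus had more counts in every CD61 high library than in any CD61 low library. For the upstream start, the shares overlapped, with 24.7% in the highest CD61 low and 24.1% in the lowest CD61 high library, whereas for the internal start they did not, with 74.6% in the lowest CD61 low and 74.0% in the highest CD61 high library. These counts are Salmon's estimates of how reads shared between transcripts divide, and the shares were not tested.

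Tgfbr2 read 173, 195 and 183 CPM in CD61 low and 136, 137 and 129 CPM in CD61 high cells. The groups did not overlap, and the Log2FC was -0.46 ± 0.07 (edgeR adjusted p = 4.6e-04). Tgfbr1 read 24.1, 28.1 and 33.7 CPM in CD61 low and 38.4, 32.6 and 36.6 CPM in CD61 high cells, which overlap through the third CD61 low library. Its Log2FC was 0.33 ± 0.12 (edgeR adjusted p = 0.048), or 0.02 with library size alone, and did not pass the threshold of 0.01, although it did without that library (0.44 ± 0.11, adjusted p = 0.00723).

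Tgfbr3 read 29.8, 27.2 and 31.9 CPM in CD61 low and 38.7, 33.0 and 33.4 CPM in CD61 high cells, at a Log2FC of 0.24 ± 0.10 (edgeR adjusted p = 0.061), which was -0.06 with library size alone. The TPM ratio of Tgfbr2 to Tgfbr1 was 5.93 ± 0.820 (SD, n = 3) in CD61 low and 3.37 ± 0.279 in CD61 high cells, without overlap between the groups (5.11 and 3.69 at the nearest). Tgfbr2 has 2 annotated transcripts in use, Tgfbr2-201 and Tgfbr2-202, whose shares were 40.6% ± 5.63 and 59.4% ± 5.63 in CD61 low and 38.3% ± 0.698 and 61.7% ± 0.698 in CD61 high cells.

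Smad2 read 73.9, 76.5 and 86.1 CPM in CD61 low and 63.3, 54.6 and 59.9 CPM in CD61 high cells. The groups did not overlap, and the Log2FC was -0.41 ± 0.09 (edgeR adjusted p = 0.0028), a call that was lost without the second (adjusted p = 0.0103) or the third (adjusted p = 0.0119) CD61 high library. Smad3 read 86.1, 88.7 and 100.4 CPM in CD61 low and 117, 105 and 117 CPM in CD61 high cells, also without overlap. Before TMM scaling its estimated counts overlapped, at 1800 to 2057 in CD61 low and 1819 to 1992 in CD61 high cells. Its Log2FC was 0.30 ± 0.08 (edgeR adjusted p = 0.012), which did not pass, but was past the threshold with DESeq2 (adjusted p = 0.00733) and without the third CD61 low (adjusted p = 0.00464) or the second CD61 high library (adjusted p = 0.00868), and was -0.00 with library size alone. Without the third CD61 low library, 5 members were higher, the added ones being Tgfbr1 and Smad3, while the number of all genes called higher went from 2342 of 12077 to 2105 of 12114.

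Smad7 read 27.6, 20.6 and 22.7 CPM in CD61 low and 25.8, 25.1 and 25.5 CPM in CD61 high cells. These overlap, and the Log2FC was 0.11 ± 0.11 (edgeR adjusted p = 0.44), or -0.19 with library size alone. The TPM ratio of Smad3 to Smad2 was 0.849 ± 0.139 (SD, n = 3) in CD61 low and 1.31 ± 0.137 in CD61 high cells, from at most 1.00 to at least 1.18. TPM is not TMM-scaled and gives short transcripts, such as Smad2-207 with 628 bases, more weight than counts do. By TPM, Smad3 averaged 72.2 in CD61 low and 61.4 in CD61 high cells, unlike its TMM-scaled CPM. Mean estimated counts of Smad3 and Smad2 were 1916 and 1646 in CD61 low, and 1932 and 1016 in CD61 high cells. Smad2 counts fell on several transcripts, of which the longest, Smad2-205, took 44.7% ± 3.42 and 53.9% ± 6.36, while Smad3-201 took 92.3% ± 2.75 and 94.0% ± 0.673 of the counts of Smad3.

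**Figure D4:**
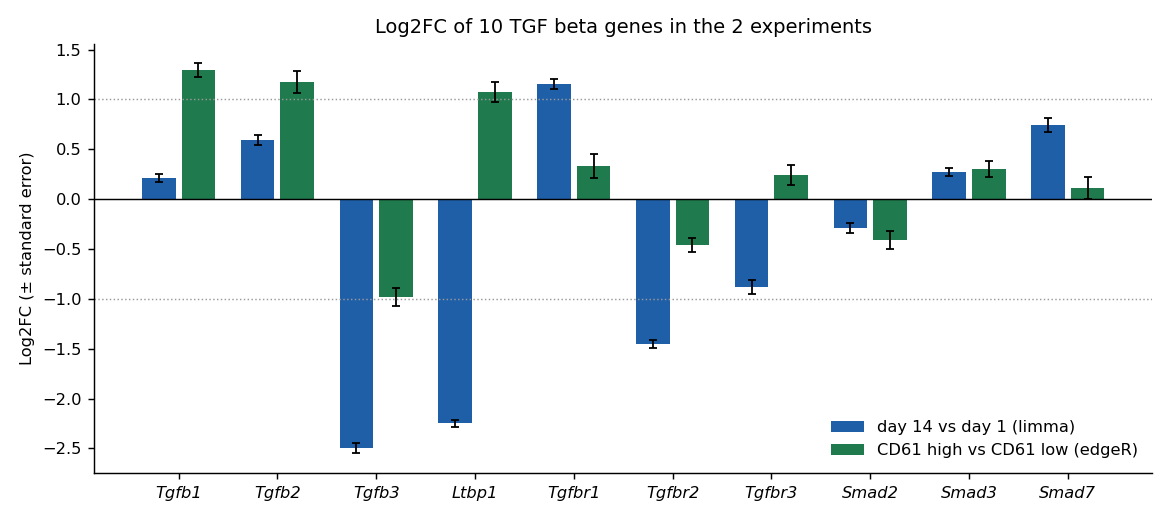
Bars give the Log2FC of each gene with its standard error for day 14 against day 1 (limma on log2(CPM + 1)) and for CD61 high against CD61 low cells (edgeR), and dotted lines mark Log2FC values of 1 and -1. Tgfb3, Tgfbr2 and Smad2 are negative and Tgfb1 and Tgfb2 positive in both, and Ltbp1 is -2.25 in one and 1.07 in the other.

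Further genes of the pathway were read in 4 lists of genes linked to latency and activation, related receptors and activin-side ligands, SMAD partners, and known target genes. Of 12 tested genes for latency and activation, 2 rose and 9 fell between days 1 and 14 (median Log2FC -0.57, against -0.03 over all genes), where 32.6% of all genes rose and 36.0% fell. The fibrillins Fbn1 and Fbn2, to whose microfibrils LTBPs bind, fell, with a Log2FC of -3.63 ± 0.09 and -3.40 ± 0.07, as did Ltbp2 (-2.37 ± 0.11). Ltbp4, which encodes an LTBP that binds TGF beta 1, rose by 1.49 ± 0.05, and Itgb1, the integrin beta-1 subunit, by 0.78 ± 0.04. In CD61 high cells, 5 of 12 were higher and 2 lower (median 0.19, against 0.00), beside 19.4% and 16.0% of all genes. Fbn1 (-2.70 ± 0.16) and Fbn2 (-1.75 ± 0.13) were lower there too, and Itgb1 (1.11 ± 0.07), Thbs1, the latent ligand activator thrombospondin-1 (0.88 ± 0.10), and Ltbp4 (0.73 ± 0.08) were higher. With library size alone, Thbs1 read 0.58 and Ltbp4 0.43, still past the threshold. Ltbp1 had the sign of Ltbp4 in the sort and that of the fibrillins over time.

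Of 12 tested related receptors and activin-side genes, 4 rose and 6 fell by day 14 (median -0.17, against -0.03), so that the rises were about as frequent as over all genes (32.6%) and 36.0% of all genes fell. Bambi, a decoy receptor without a kinase, rose most, by 3.69 ± 0.06, from a mean of 11.4 to 159.7 CPM. Acvr2b (1.55 ± 0.15) and Acvr1b (1.13 ± 0.08), which encode activin receptors, rose as well. Not all activin receptor genes did, since Acvr2a, with means of 18.1 and 19.1 CPM, was not called (0.07, limma adjusted p = 0.35). Acvr2b was low, with a mean of 0.351 CPM on day 1 and 2.97 CPM on day 14, and its Log2FC was 2.76 with a pseudocount of 0.1 and 3.12 with edgeR and TMM on the recovered reads. Inhba, which encodes the activin A subunit, fell (-1.74 ± 0.07), as did its antagonist Fst (follistatin, -1.67 ± 0.07) and Gdf11 (-1.16 ± 0.06). In CD61 high cells 6 were higher and 2 lower (median 0.40, against 0.00), beside 19.4% and 16.0% of all genes. Acvrl1 (1.53 ± 0.28, from a mean of 0.891 to 2.58 CPM), Bambi (1.16 ± 0.11) and Acvr2b (0.98 ± 0.23) were higher, and Inhba (-0.83 ± 0.11) and Acvr2a (-0.41 ± 0.10) were lower. The calls of Acvr2a and Acvr2b were lost when any 1 of the 6 sorted libraries was left out, except that Acvr2b kept its call without the third CD61 low library. With library size alone, Acvr2b was not called (0.68, edgeR adjusted p = 0.0258) and Acvr2a read -0.71. With the replicate number as a block, neither was called (edgeR adjusted p = 0.0103 for Acvr2b and 0.0178 for Acvr2a).

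Of the 13 SMAD partners and regulators, 7 rose and 4 fell by day 14 (median 0.15, against -0.03), beside 32.6% and 36.0% of all genes, so that the falls were near the share over all genes. Skil, a corepressor of SMADs, rose by 1.00 ± 0.05, Smad6, an inhibitory SMAD of the BMP branch, by 0.92 ± 0.05, and the phosphatase gene Ppm1a by 0.69 ± 0.05. Pmepa1, a feedback inhibitor that is induced by TGF beta, fell (-1.95 ± 0.04), as did the corepressors Tgif1 (-0.54 ± 0.07) and Tgif2 (-0.48 ± 0.11, a call lost with no filter on low values at an adjusted p of 0.0103). In CD61 high cells 4 were higher and 3 lower (median 0.11, against 0.00), beside 19.4% and 16.0% of all genes. Smad6 read 1.46 ± 0.09, the ubiquitin ligase gene Smurf2 0.82 ± 0.08 and Skil 0.44 ± 0.12, and Nedd4l -0.80 ± 0.12, Tgif2 -0.73 ± 0.16 and Tgif1 -0.51 ± 0.09. With library size alone, Smurf2 read 0.52, Tgif1 -0.82 and Skil 0.14, and Skil was then not called (edgeR adjusted p = 0.296). Skil, with an edgeR adjusted p of 0.0092, also lost its call with TMM computed after the filter (0.0102) and with the filterByExpr filter (0.0115). It lost it too without the first or second CD61 low or the first or the third CD61 high library, and Tgif2 without the first CD61 low, first CD61 high or the third CD61 high library. With the replicate number as a block, Skil (edgeR adjusted p = 0.0187) and Tgif2 (0.0110) were not called either.

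Of 15 tested known targets of TGF beta, 5 rose and 8 fell by day 14 (median -0.26, against -0.03). Over all genes 32.6% rose and 36.0% fell, so that the rises were near the share over all genes. Postn, Acta2 and Tgfbi, which encode periostin, smooth muscle actin and TGF beta-induced matrix protein, fell (-2.99 ± 0.04, -2.90 ± 0.06 and -2.88 ± 0.13), whereas Cdkn1a, a cell cycle inhibitor that p53 also induces, rose by 3.99 ± 0.04 and Bhlhe40 by 1.07 ± 0.04. From day 7 to day 10, 2 rose and 10 fell (median -0.44, against 0.07 over all genes), beside 29.8% and 18.9% of all genes. From day 10 to day 14, 9 rose and 3 fell (median 0.43, against -0.04), beside 22.9% and 30.0%. Acta2 averaged 1452, 140.3, 34.6 and 194 CPM over the 4 days.

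In the sort, 7 of 16 targets were called higher in CD61 high cells and 3 were called lower (median 0.29, against 0.00), beside 19.4% and 16.0% of all genes, so that the lower calls were near the share over all genes. Bhlhe40 (1.30 ± 0.09) and Fn1 (fibronectin, 1.17 ± 0.14) were higher, and Nox4 (-2.06 ± 0.20), Cdkn2b (-0.95 ± 0.10) and Tagln (-0.89 ± 0.18) were lower. The call of Tagln was lost without the second CD61 low library (edgeR adjusted p = 0.0115).

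**Figure D5:**
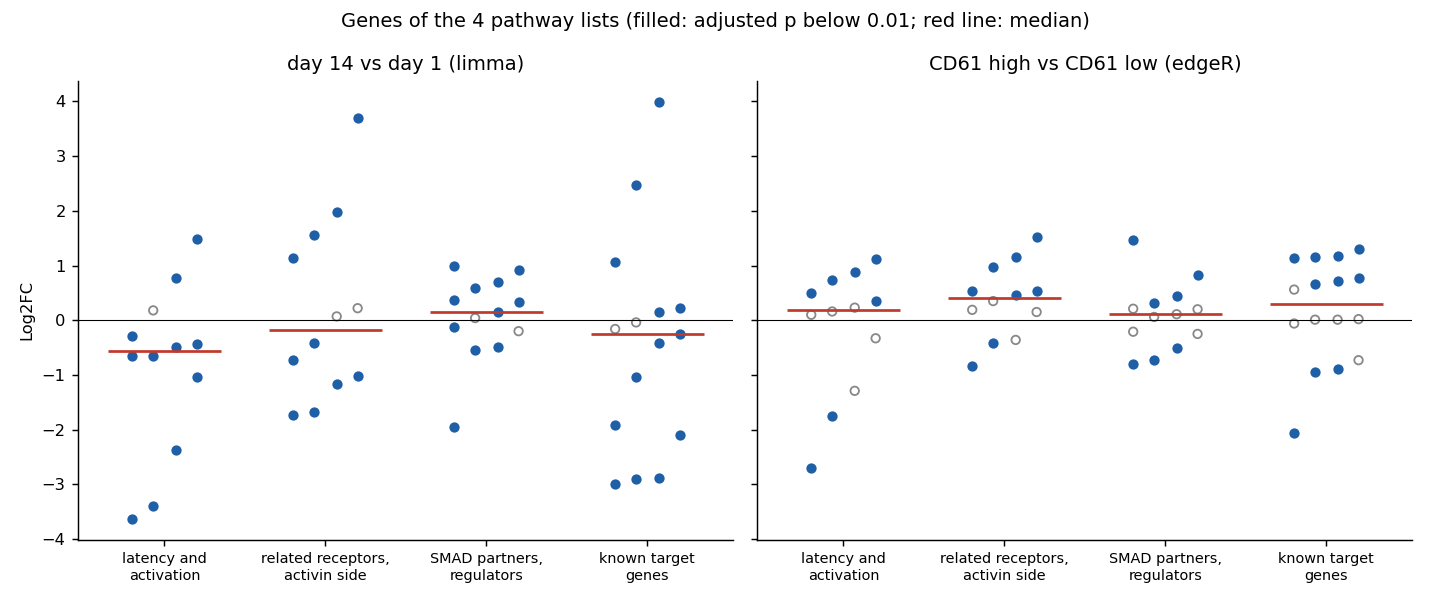
Points give the Log2FC of each tested gene of the 4 pathway lists for day 14 against day 1 (left) and CD61 high against CD61 low cells (right), filled where the adjusted p is below 0.01, with a red line at the median of each list. The latency list has its median at -0.57 on the left and 0.19 on the right, and every list holds filled points on both sides of 0 in both panels.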

How the data were processed

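The deposited CPM values of the 8 differentiation libraries were made by the authors with STAR and HTSeq; 99.999% of the values lie within 0.01 of a whole number of reads, so depth could be recovered. For the sort the authors deposited Salmon's estimated counts per transcript, with TPM values beside them (GRCm39, release 104). Whether either step used strand, and the annotation behind the CPM table, are not given in the sources used here.

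Estimated counts and TPM were summed to genes with GENCODE M39, which matched 99.3% to 99.4% of the counts, and the count sums were rounded. Days were compared with limma 3.58.1 on log2(CPM + 1), with a trend, in 1 fit of all 8 libraries, keeping genes that exceeded 1 CPM in any library. Sorted cells were compared with edgeR 4.0.16 (quasi-likelihood, TMM over all genes) in R 4.3.3, keeping genes that had 5 or more normalized counts in each of the 6. The threshold was 0.01 on p-values adjusted over all genes tested (Benjamini-Hochberg), with a Log2FC beyond 1 as a second mark. Both fits were tried on simulated counts, with Log2FC values of at least 1 in either direction set in well-counted genes and the same dispersion for all genes. Smaller changes and the spread of the real replicates were thus not probed. Errors of Log2FC are standard errors, taken in edgeR from the F statistic, and those of levels are SD. Fold changes on the log2(CPM + 1) scale understate the change of low genes. Tables and figures were made with Python 3.11.15, pandas 2.3.3 and matplotlib 3.10.9.

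All 10 members are named. From each pathway list, up to 3 genes with the highest and 3 with the lowest Log2FC past the threshold and a mean of at least 1 CPM are named for day 14 against day 1 and for the sort, and for the member with the largest change over time the 3 genes with the highest Pearson r. A gene of the target list that this rule names is not reported here, though the list's counts and medians include it. The members, lists and rules were chosen with earlier results of these data known. Itgb3 was kept out of the lists because the sort selected on its protein. Ccn2 and Adgre1 stand under older symbols in the CPM table and were matched by gene ID. Alternatives were DESeq2 1.42.0, other scalings, filters and pseudocounts, edgeR on the recovered reads, a replicate block and each library left out.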

Additional observations from a re-analysis of the deposited data

How the results depend on the processing

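The calls and directions of all 10 members between days 1 and 14 were the same under every alternative run. With edgeR and TMM scaling of the recovered reads, 3 members fell from day 7 to day 10 instead of 1, the added ones being Tgfbr2 and Smad3, and Tgfbr2 rose in the last step. Over all 12725 genes, falls from day 7 to day 10 went from 2399 to 3167 under that setting. Without a trend, 2 fell from day 10 to day 14 instead of 4 (3081 instead of 3812 of all genes), Ltbp1 and Smad2 losing their calls, and Tgfbr1 in that step read 0.00 with quantile normalization and 0.02 with edgeR and TMM. With library size scaling alone in the sort, 1 member had a Log2FC beyond 1 (Tgfb3) instead of 3. Of all genes past the threshold, 1295 were beyond 1 under that scaling, against 585 higher and 528 lower with TMM. Smad7 then read -0.19, Tgfbr3 -0.06 and Smad3 -0.00. Leaving out 1 library at a time gave 3 to 5 members higher and 2 to 3 lower in the sort (1642 to 2124 and 1316 to 1929 of all genes, against 2342 and 1933), values of -0.03 to 0.01 for Smad2 from day 7 to day 10, and of -0.00 to 0.03 for Smad3 from day 1 to day 7. Where a value changed, the cause was not tested unless stated.

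Whether replicate numbers pair the libraries is not stated. Both sorted fractions come from the same 3 groups of cells, so that pairs exist in the sort, but the numbers gave no sign of them. Deviations of same-numbered libraries correlated at -0.0253 to 0.0611 in 6 pairs of days and at -0.321 to 0.22 in the 3 pairs of the sort, where 1 of 6 libraries correlated best with its own number. With the replicate number as a block, 3578 genes passed the adjusted p in the sort instead of 4275 and 8789 instead of 8726 between days 1 and 14. No member's call changed under the block, whereas Skil, Acvr2a, Acvr2b and Tgif2 lost theirs in the sort. With 3 libraries per group in the sort, Smad7 (0.11 ± 0.11), Tgfbr3 (0.24 ± 0.10) and Tgfbr1 (0.33 ± 0.12) did not pass, and Tgfbr1 passed without the third CD61 low library (adjusted p = 0.00723).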
